A study of Mus musculus with 4 samples.

Results

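The genes described here act at the nuclear end of the Notch pathway: the DNA-binding protein gene Rbpj, the coactivator gene Maml1, the Hes and Hey repressor genes (Hes1, Hes5, Hes7, Hey1, Hey2 and Heyl), the feedback inhibitor gene Nrarp and the Deltex gene Dtx1. Every array probe annotated to these 10 genes was taken, which gave 14 of the 25697 probes, for 10 of the 16593 genes measured. The cells were primary keratinocytes isolated from neonatal mice of the 129 background, and they carried Pou5f1::GFP, a transgene that reports Pou5f1 activity by fluorescence. All cells, treated and untreated, had been transduced with reprogramming transcription factors, which the design text does not name. The groups were 2.5 uM DAPT on day 4, no DAPT on day 4, 2.5 uM DAPT on day 7 and no DAPT on day 7, with 1 Illumina bead array each. Groups follow the sample titles, since the field for treatment names DAPT in every sample, and no vehicle is named for the cells without DAPT. DAPT is a small-molecule inhibitor of gamma-secretase.

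Gamma-secretase cuts the Notch receptor inside the membrane and frees its intracellular domain, which enters the nucleus. There the domain binds RBPJ, a protein that otherwise sits on DNA with corepressors, and recruits a Mastermind coactivator such as MAML1 to switch on target genes. Hes and Hey genes are the classical targets and encode basic helix-loop-helix repressors, of which the Hes proteins work with Groucho corepressors. In the epidermis, Notch signalling is known for moving basal cells into the spinous layer, where Hes1 is one of its targets.

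The motif bound by RBPJ contains GTGGGAA, and the promoter windows of these genes show where those letters stand. RefSeq windows (build GRCm38.p6, 250 bases before to 50 after a gene's start) were found for 7 of the 10 genes, and Hes1, Hey1 and Heyl had no entry in the table used. GTGGGAA, searched on both strands, was present in the windows of 3 genes, Hes5, Hes7 and Hey2. Among all 32851 windows of this length, 6.38% held the motif and 0.256% held it at least 2 times. The matching stretches are printed with the strand of the gene and with GTGGGAA or its reverse complement TTCCCAC in capitals. Those of Hes5 lie at chr4:154960686-154960714 and chr4:154960829-154960857 (plus strand), that of Hes7 at chr11:69120262-69120290 (plus strand), and those of Hey2 at chr10:30842973-30843001 and chr10:30842770-30842798 (minus strand).
Hes5, match at 226 bases before the start: gggcgagcgcgTTCCCACagcccggacat
Hes5, match at 83 bases before the start: ggccgccgagtGTGGGAAcggccgcggcg
Hes7, match at 180 bases before the start: cctcccctcacTTCCCACatttggggcta
Hey2, match at 207 bases before the start: gcgcggtggcaTTCCCACgcctctgccaa
Hey2, match at 4 bases before the start: tgggctgcagcGTGGGAAagaacctccag

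Nrarp is shown in full upstream of its start because it had the lowest mean difference with DAPT among the genes detected. The stretch is chr2:25180508-25180757 on the plus strand (GRCm38.p6), with CACGTG in capitals, a palindromic E-box that Hes and Hey proteins are known to bind.
Nrarp: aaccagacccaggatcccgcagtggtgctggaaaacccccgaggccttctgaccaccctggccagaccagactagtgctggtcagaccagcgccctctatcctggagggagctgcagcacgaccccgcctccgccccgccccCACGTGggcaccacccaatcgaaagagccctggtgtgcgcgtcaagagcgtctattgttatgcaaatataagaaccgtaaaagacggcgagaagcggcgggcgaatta
The Nrarp window held neither GTGGGAA nor the shorter TGGGAA, which lies within GTGGGAA and occurred in 25.6% of all windows. CACGTG occurred in 7.15% of all windows, and Nrarp was the only one of the 7 genes with it. The windows of Dtx1 and Maml1 held none of the 3 motifs, and those of Rbpj held TGGGAA alone. A match is only a description of the letters in this window.

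The 4 arrays differed in brightness. Mean deposited intensity was 365 with DAPT and 472 without DAPT on day 4, and 416 with DAPT and 323 without DAPT on day 7. A probe was called detected at a detection p under 0.01, that is, at a signal above nearly all of the array's negative controls. The share detected was 49.3% with DAPT and 55.0% without on day 4, and 53.0% with and 47.8% without on day 7. The number of arrays, 1 per group, limits the precision, and no difference between 2 arrays has a replicate error. As a guide to measurement error, probe pairs of the same gene were compared. The difference measured by 1 probe had an SD of 0.46 around its gene's mean for DAPT on day 4 (2122 genes) and 0.30 on day 7 (2033 genes), on the log2 scale. This SD includes real differences between transcripts of a gene and leaves out the spread between cultures. All 10 keratinocyte markers (among them Krt5, Krt14 and Trp63) were detected on every array, and so were all 8 fibroblast markers (among them Col1a1 and Pdgfra). The summed keratinocyte intensity was 36460 with DAPT and 33740 without on day 4, and 21984 with and 14906 without on day 7. For fibroblast markers the sums were 13176 with and 16729 without DAPT on day 4, and 28677 with and 22520 without on day 7. After normalization the keratinocyte markers had a median log2 difference with DAPT of 0.34 on day 4 and 0.27 on day 7, and the fibroblast markers 0.08 and 0.17. In bulk samples, fewer cells of a type and less RNA per cell cannot be told apart.

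Of the 10 genes, 4 were detected on at least 1 array: Hes1, Nrarp and Maml1 on all 4, and Hey1 on 2. In the whole series, 62.6% of genes were detected on at least 1 array. The other 6 genes (Hes5, Hes7, Hey2, Heyl, Dtx1 and Rbpj), with 10 probes between them, were not detected on any array. Their 40 intensities lay between -16.7 and 13.1, and 17 of them were below 0. No direction is given for these genes, because both sides of each comparison were not above background.

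**Figure D1:**
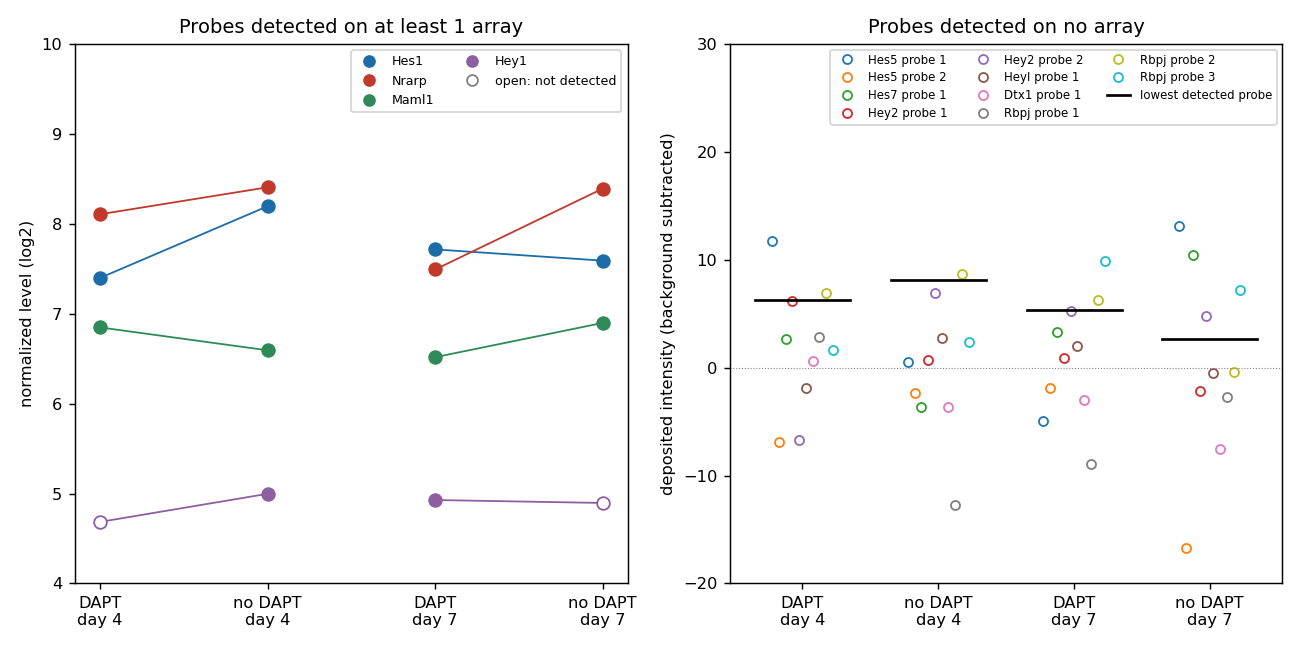
Left, normalized log2 level of the 4 detected genes on each array, with lines joining DAPT and no DAPT of the same day and open circles where a probe was not detected; levels of different probes are not comparable. Right, deposited intensity of the 10 probes detected on no array, with a black bar at the lowest detected intensity of each array. Nrarp was lower with DAPT on both days, Hes1 on day 4, and the undetected probes scattered around 0.

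RBPJ is the DNA-binding protein on which canonical Notch transcription depends, yet no probe of its gene gave a detected signal. The 3 Rbpj probes had intensities from -12.7 to 2.84, from -0.418 to 8.70 and from 1.68 to 9.91 over the 4 arrays. Their lowest detection p was 0.119, so the arrays measured only background for Rbpj. Whether the probes match the transcripts made in these cells was not tested.

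MAML1, the Mastermind coactivator, was measured on every array by 1 probe (ILMN_2841043). Maml1 intensity was 80.4 with DAPT and 120.3 without DAPT on day 4, and 79.5 with DAPT and 68.8 without DAPT on day 7. After normalization the log2 level was 6.85 with DAPT and 6.59 without on day 4, and 6.52 with and 6.90 without on day 7. The whole range over the 4 arrays was 0.38, smaller than for most of the 11450 probes detected on all 4 (median 0.64, percentile 20.7). The difference with DAPT was 0.25 on day 4, where median scaling turned it to -0.11, and -0.38 on day 7, where median scaling gave -0.05. The first lay within the probe SD of 0.46 and the second was past that of 0.30.

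HES1 is the Hes repressor best known from epidermis, and its gene was measured by 1 probe (ILMN_1247691). Hes1 intensity was 125 with DAPT and 389 without DAPT on day 4, and 202 with DAPT and 124 without DAPT on day 7. Without DAPT on day 4 the signal stood above the other 3 arrays. The normalized log2 level was 7.40 with DAPT and 8.20 without on day 4, and 7.72 with and 7.59 without on day 7. That is a difference of -0.80 (1.74-fold lower with DAPT) on day 4, at percentile 9.58 of all 14558 probes compared, and of 0.12 on day 7, at percentile 64.9 of 13915. The day 4 difference was past the probe SD of 0.46, and the day 7 difference was within that of 0.30, although with median scaling it was 0.42. Deposited Hes1 intensity had the same order over the 4 arrays as their mean intensity, and the part of array brightness in these values was not tested.

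Hes5 and Hes7, relatives of Hes1 known from neural progenitors and from somite formation, stayed at background. The first Hes5 probe came nearest to detection, with an intensity of 11.8 and a detection p of 0.0254 with DAPT on day 4, against 0.524 and 0.466 without DAPT. On day 7 the order was the opposite. The same probe stood at -4.90 with DAPT and at 13.1, its highest intensity, without DAPT (detection p of 0.0924). The second Hes5 probe was below 0 on every array. Hes7 reached a detection p of 0.0633 at best, without DAPT on day 7.

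Of the Hey repressor genes, Hey1 alone gave a signal above background, from 1 probe (ILMN_2690596). Hey1 intensity was 7.06 with DAPT and 21.7 without DAPT on day 4, and 14.1 with DAPT and 9.85 without DAPT on day 7. The probe was detected without DAPT on day 4 and with DAPT on day 7, the 2 arrays with the highest mean intensity. On the other 2 its detection p was 0.0686 and 0.0190. Detection on exactly these 2 arrays was seen for 621 probes, and on exactly the other 2 for 35. After normalization Hey1 was 1.24-fold lower with DAPT on day 4 and 1.02-fold higher on day 7. Each value sets the detected signal against the probe's own undetected signal on the other array, so neither is a lower bound. That undetected signal was above the lowest detected signal of its array. The log2 differences, -0.31 and 0.03, were within the probe SD on both days, and median scaling turned the second to -0.04. Both Hey2 probes and the Heyl probe, for repressors known from heart and vessels, had detection p values of at least 0.205.

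NRARP is an ankyrin repeat protein that binds the Notch intracellular domain with RBPJ and limits its activity, and its gene was measured by 1 probe (ILMN_2596979). Nrarp intensity was 217 with DAPT and 447 without DAPT on day 4, and 171 with DAPT and 230 without DAPT on day 7. It was the only detected member with a lower deposited intensity under DAPT on both days. The normalized log2 level was 8.11 with DAPT and 8.41 without on day 4, and 7.49 with and 8.39 without on day 7, so that DAPT on day 7 stood below the other 3 arrays. The difference was -0.30 (1.23-fold lower with DAPT) on day 4, within the probe SD of 0.46 and at percentile 29.6. On day 7 it was -0.90 (1.86-fold lower), past the probe SD of 0.30 and at percentile 0.963. Of the 11450 probes detected on all 4 arrays, 2049 (17.9%) were lower with DAPT on both days, and 13 (0.114%) were at least as low as Nrarp on each. That cut was Nrarp's own pair of values, so a small share was partly built in. By the mean of both days, -0.60, Nrarp stood at percentile 1.62 of these probes. Dtx1, which encodes a Deltex ubiquitin ligase and Notch regulator, was not detected, with intensities from -7.54 to 0.575.

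**Figure D2:**
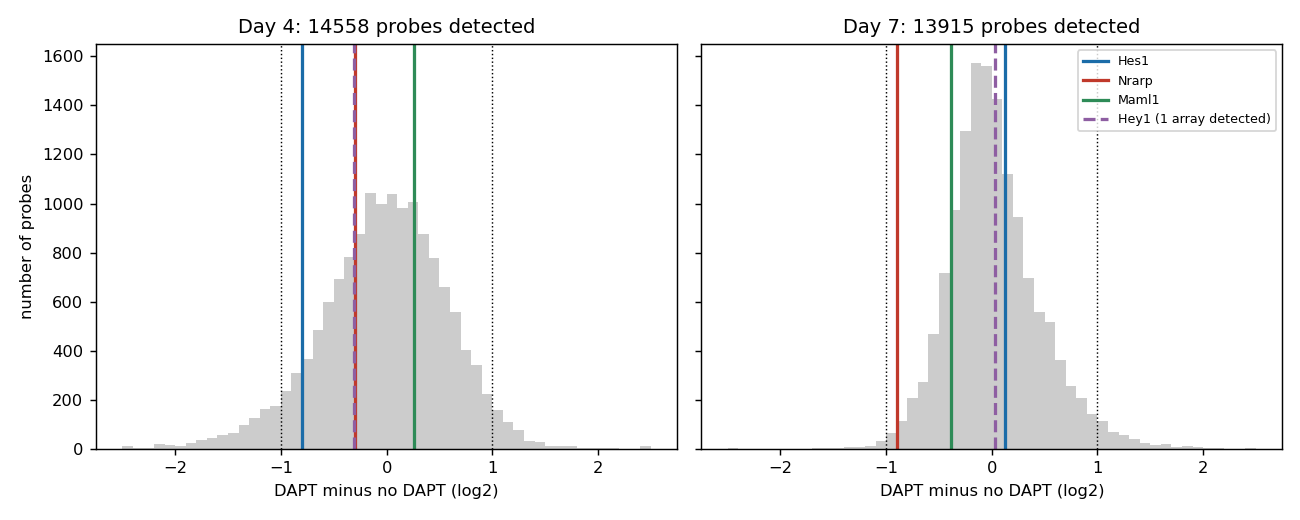
Histograms of the log2 difference, DAPT minus no DAPT, over all probes detected on at least 1 of the 2 arrays of day 4 (left) and day 7 (right), with values beyond 2.5 gathered in the end bins. Coloured lines mark the 4 detected genes and dotted lines mark 2-fold; Nrarp lies near the lower end on day 7 (percentile 0.963) and no gene passes 2-fold.

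With DAPT, 0 of the 4 member probes compared differed at least 2-fold on either day. Over all probes compared on day 4, 3.18% were that much higher (463 of 14558) and 5.82% lower (847). On day 7 the shares were 2.67% higher (372 of 13915) and 0.496% lower (69), so 0 of 4 is near this background on both days. The median over the 4 probes was -0.31 on day 4 and -0.17 on day 7, beside 0.00 and -0.02 over all probes. On day 4, 3 of the 4 were below 0, and on day 7, 2 of the 4. With median scaling, which moved the median of all probes to -0.17 on day 4 and 0.19 on day 7, Hes1 on day 4 stood at -1.13 and so passed 2-fold. Nrarp then stood at -0.60 on day 4 and -0.61 on day 7. In all 5 scalings, Nrarp was below 0 on both days and Hes1 was below 0 on day 4 and above 0 on day 7.

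**Figure D3:**
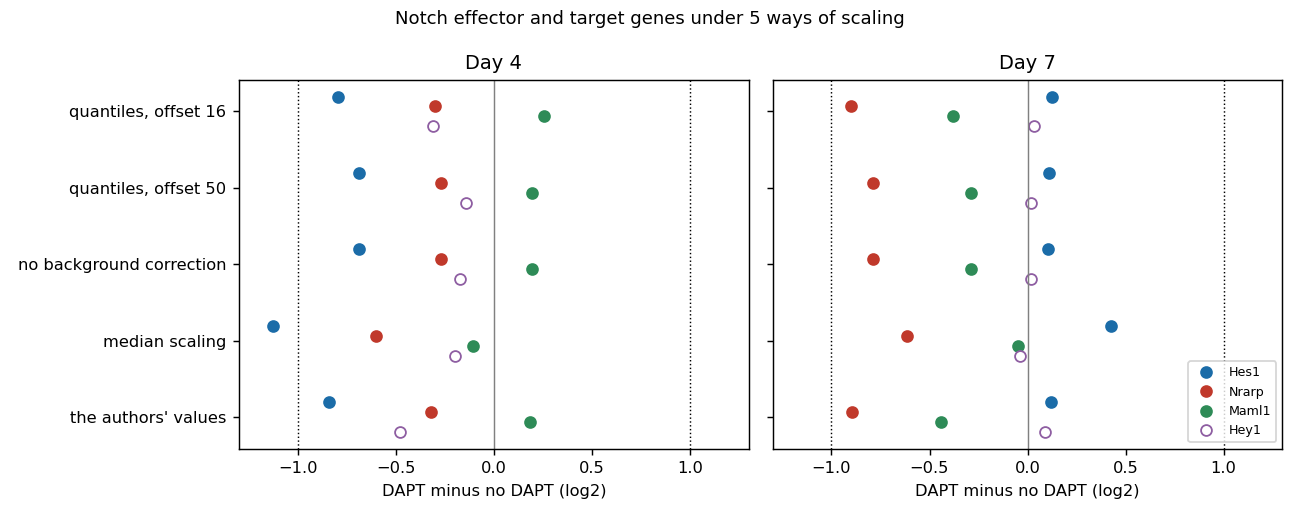
Log2 difference, DAPT minus no DAPT, of Hes1, Nrarp, Maml1 and Hey1 (open: detected on 1 array of each pair) under 5 ways of scaling, for day 4 (left) and day 7 (right). Nrarp lies left of 0 in every row, from -0.60 to -0.27 on day 4 and from -0.90 to -0.61 on day 7, while Maml1 on day 4 and Hey1 on day 7 lie on both sides of 0. In the row of the authors' values, intensities under 16 were raised to 16, among them that of Hey1 with DAPT on day 4 (13.9).

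A limma model with DAPT and day as additive terms over the 4 arrays gave the one test that the design allows. It has 1 residual degree of freedom per probe, which is the difference between the DAPT effects of the 2 days, and its spread is shared across probes. Of 15193 probes detected on at least 1 array, 1 passed an adjusted p of 0.05 for DAPT (0.00658%), and 201 had an unadjusted p under 0.05 (1.32%). None of the 4 member probes tested (Hes1, Nrarp, Maml1 and Hey1) passed by either measure. Nrarp had the lowest estimate, -0.60 (SE 0.38, 95% interval -1.40 to 0.20, Benjamini-Hochberg adjusted p = 0.9999), and was lower with DAPT on 2 of 2 days. Hes1 had an estimate of -0.34 with an interval from -1.15 to 0.48, Hey1 one of -0.14 with -0.93 to 0.65, and Maml1 one of -0.06 with -0.86 to 0.73. A 2-fold lower level with DAPT thus lay inside the intervals of Nrarp and Hes1 and outside that of Maml1. The interval of Hey1 cannot decide this, because the offset of 16 shrinks differences so near background. The p-values measure only the spread between these 4 samples, which are not stated to be separate cultures.

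Between day 4 and day 7 the same 4 arrays were paired the other way, so these values share their arrays with the ones above. Without DAPT, Hes1 was lower on day 7 by a difference of -0.61 (7.59 on day 7, 8.20 on day 4), past the probe SD of 0.53. With DAPT it was higher by 0.32 (7.72 on day 7, 7.40 on day 4), past the probe SD of 0.25. Nrarp differed by -0.02 without DAPT and by -0.61 with DAPT (7.49 on day 7, 8.11 on day 4), at percentile 8.31. Maml1 differed by 0.30 without DAPT, where median scaling gave -0.20, and by -0.33 with DAPT. Hey1, with an undetected array in each pair, was 1.07-fold lower on day 7 without DAPT and 1.18-fold higher with DAPT. The first log2 difference turned to 0.01 with median scaling and 0.04 with the authors' normalized values. In each comparison 0 of 4 member probes differed at least 2-fold. Over all probes without DAPT, 6.32% were that much higher on day 7 and 9.65% lower, and with DAPT 3.29% were higher and 1.97% lower. In the additive limma model 106 probes passed for the day (0.698%) and 0 of the 4 members did, with estimates from -0.31 for Nrarp to 0.07 for Hey1. An unadjusted p under 0.05 for the day was found for 7.27% of probes and for 0 of these 4.

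For Hes1, Nrarp and Maml1, the 3 genes closest in pattern over the 4 arrays were found by the root mean square distance between centred log2 levels. Hes1 was closest to Bcap31, Tnc and Emc3 (distances of 0.03 each), Nrarp to Adarb1 (0.08), Msx2 (0.08) and Tirap (0.10), and Maml1 to Cep95 (0.01), Sec16a (0.02) and Psmc5 (0.02). Over 4 arrays and 11450 probes this closeness is a description only. Msx2, a homeobox gene, had log2 levels of 5.79 with DAPT and 5.94 without on day 4, and 5.20 with and 5.93 without on day 7.

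The other genes of nuclear Notch signalling were described by lists, each gene by its brightest probe. Genes named from them that did not pass 2-fold with DAPT were chosen after their values were seen. Over the 9913 genes so compared on day 4, 3.81% were at least 2-fold higher with DAPT and 3.60% lower, with a median of 0.08. Of 9705 genes on day 7, 1.71% were higher and 0.495% lower, with a median of -0.05. Among coactivators of the Notch complex, 8 of 9 were on the array and 6 were compared. On day 4 0 of them were at least 2-fold higher and 1 was lower, and all 6 lay below 0 in each of 5 scalings, with a median of -0.47. The lower one was Snw1, which encodes a cofactor shared with splicing. It was not detected on the DAPT array and stood 2.94-fold lower there. That value fell below 2-fold with an offset of 50 (1.84) and without background correction (1.88). Kat2a, a histone acetyltransferase gene, stood at -0.75 and passed 2-fold with median scaling, at -1.09. Maml2 stood at -0.48 and Ep300 at -0.47. Ccnc stood at -0.03 but its other probe at 0.65, and the 3 Kat2b probes ranged from -0.86 to 0.02. On day 7 the coactivators' median was 0.22, with 0 past 2-fold, Kat2a at 0.93 and 5 of 6 above 0. Kat2a passed 2-fold with median scaling (1.25, with 6 of 6 above 0 and a median of 0.52) and with the authors' normalized values (1.03). The mean intensity of the DAPT array was likewise below its control on day 4 and above it on day 7, and its part in these values was not tested.

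Of 13 corepressors and relatives of RBPJ listed, 9 were on the array, and the 7 compared had medians of -0.04 on day 4 and -0.14 on day 7, and 0 passed 2-fold on either day. Median scaling turned the day 7 median to 0.05 and put 1 gene past 2-fold that day, Cir1, which encodes an RBPJ corepressor, at 1.08, against 0.76 after quantile normalization. Hdac2, a histone deacetylase gene, stood at 0.79 and -0.14, and Spen, the gene of an RBPJ corepressor, at -0.11 and -0.62. The Groucho family genes (Tle1 to Tle6), a family with corepressors that Hes proteins recruit, had medians of -0.00 over 6 genes and 0.15 over 5, with 0 past 2-fold. The day 4 median was 0.03 with the authors' values and -0.17 with median scaling. Among the other Hes-related genes, Hes6 and Bhlhe40 were detected and Hes2, Hes3, Helt and Bhlhe41 were not on any array. Hes6, which in other tissues opposes Hes1, stood at -0.47 on day 4 and -0.26 on day 7, but its 3 probes ranged from -1.86 to -0.47 and from -0.26 to 1.07, and median scaling turned the day 7 value to 0.02. Deltex and turnover genes, 7 of 9 on the array, had medians of -0.44 over 7 genes and 0.00 over 6. Median scaling gave 0.25 for the second. On day 4, 5 of the 7 lay below 0, and Dtx3 and Fbxw7 lay above it at 0.66 and 0.69. Of the 7, Nedd4, a ubiquitin ligase gene, was at least 2-fold lower on day 4 at -1.05. Its other probe stood at 0.06, however, and the authors' normalized values gave -0.98. Numb, the gene of a Notch antagonist, was not detected with DAPT on day 4 and there was lower by at least 1.48-fold, while its other probes ranged up to 0.16; in the authors' normalized values it stood at -1.14.

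**Figure D4:**
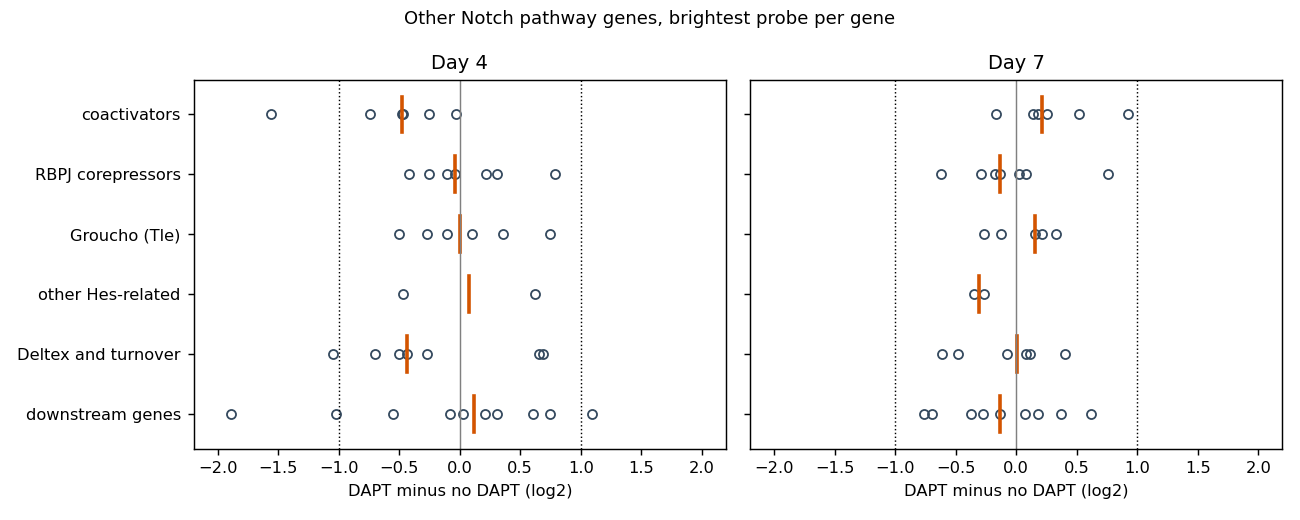
Log2 difference, DAPT minus no DAPT, of the detected genes of 6 Notch-related lists on day 4 (left) and day 7 (right), each circle 1 gene by its brightest probe and each orange bar the list's median. Dotted lines mark 2-fold; on day 4 the 6 coactivators lie below 0, and on day 7 no gene of the lists passes 2-fold under the quantile normalization plotted.

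The last list held genes placed downstream of Notch in keratinocytes or other cells. Of its 11 genes on the array 10 were compared on day 4 and 9 on day 7, with medians of 0.12 and -0.14. The second was 0.15 with median scaling. On day 4, 1 was at least 2-fold higher, the transcription factor gene Gata3 at 1.09, and 2 were lower, Ivl at -1.89 and Cdkn1a at -1.02. Gata3 stayed under 2-fold with an offset of 50 (0.86), without background correction (0.86) and with median scaling (0.73). Cdkn1a did so with median scaling (-0.81) and the authors' values (-0.92), while Ivl passed in all 5 scalings. Ivl encodes involucrin of the cornified envelope and had log2 levels of 9.50 with DAPT and 11.39 without on day 4, and 8.46 with and 9.22 without on day 7. Cdkn1a encodes the cell cycle inhibitor p21, with 3 probes from -1.75 to -0.76 on day 4 and from 0.07 to 0.90 on day 7. On day 7, 0 of the 9 passed 2-fold, and Krt10, a spinous layer keratin gene, stood at 0.75 on day 4 and -0.37 on day 7.

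Markers of other cell types, among them the vessel cells in which Hey2 and Heyl are known, were also read on these arrays. Of 6 endothelial markers, 2 were detected on every array and 4 without DAPT on day 4, and Cdh5 and Kdr were not detected on any. Their summed intensity was 384 with DAPT and 655 without on day 4, and 489 with and 492 without on day 7. Of 5 smooth muscle markers 4 were detected on every array and Cnn1 on none, with sums of 33720 with DAPT and 39731 without on day 4, and 37081 with and 38533 without on day 7. Melanocyte markers were detected for 4 to 5 of 7, with sums of 438 with DAPT and 725 without on day 4, and 488 with and 873 without on day 7. Of 4 immune markers on the array 2 were detected and Ptprc was not on any array, with sums of 117 with DAPT and 171 without on day 4, and 267 with and 197 without on day 7. These sums are not normalized, and the DAPT array was the dimmer of the pair on day 4 and the brighter on day 7. After normalization the 5 melanocyte markers compared on day 4 had a median difference of 0.13 (4 above 0, 1 at least 2-fold lower), which median scaling turned to -0.18. On day 7 the 6 compared had a median of -1.27, and 4 of them (Dct, Tyrp1, Pmel and Mlana) were at least 2-fold lower with DAPT, against 0.495% of all genes. That count was 2 to 4 in the 5 scalings. Dct and Pmel were not detected with DAPT on day 7, and other probes ranged up to -0.27 for Tyrp1 and -0.10 for Pmel. Tyrp1, a pigment enzyme gene, had log2 levels of 6.94 with DAPT and 9.18 without on day 7, and 8.50 with and 8.46 without on day 4. The Nrarp difference was likewise lower on day 7 (-0.90) than on day 4 (-0.30), although with median scaling it was -0.61 and -0.60. The endothelial markers compared had medians of -0.22 on day 4 and -0.38 on day 7, the smooth muscle markers -0.25 and -0.10, and the immune markers 0.13, which median scaling turned to -0.19, and -0.35. The endothelial medians were over 4 genes and 2 genes, and median scaling gave -0.08 on day 7. On day 4, 3 of the 4 endothelial markers lay below 0. Tek alone was higher with DAPT, past 2-fold at 1.02, though not past it with median scaling. The part of these cell types in the Nrarp values was not tested.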

How the data were processed

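Gene expression of 4 samples was measured on 4 arrays. The deposited non-normalized table holds linear intensities by probe, per the file headers, and the authors' deposited detection p-value beside each. Background had been subtracted before deposit, judging from values below 0. The submitters' processing notes name BeadStudio; version and genome build are not given in the sources used here. A second deposited table holds intensities normalized by the authors, by a method not given in the sources used here; its scale is linear, with column medians from 24.7 to 26.0.

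The non-normalized intensities were corrected with neqc of limma 3.58.1 (R 4.3.3; negative controls inferred from detection p, offset 16), quantile normalized and put on the log2 scale. Probes were named by the platform annotation: 23978 had 1 symbol, 0 several, and 1719 are unnamed here. Probes with a detection p under 0.01 on 1 or more of the arrays compared were used; a difference of at least 2-fold was counted. Every probe of the 10 genes is accounted for, and pathway genes past 2-fold with DAPT were named. Limma's additive test was adjusted over all probes by Benjamini-Hochberg. On simulated data for the DAPT effect (15193 probes) it recovered 22% of changes of 1 log2 unit and 92% of 2 units. The simulated noise had the same SD for every probe, and the simulated DAPT effect was equal on both days. These shares therefore need not hold for the real arrays. The members and lists were chosen with earlier results of these data known. Python 3.11.15, pandas 2.3.3 and matplotlib 3.10.9 made counts and figures. Alternatives tried were another background treatment, offset, scaling, detection filter and model. The authors' normalized values under 16 were raised to 16 before the log2 step, which shrinks the differences of dim probes.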

Additional observations from a re-analysis of the deposited data

Results flagged for a closer look

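Hes1 differed in sign between the days with DAPT, at -0.80 on day 4 and 0.12 on day 7. Maml1 did the same in the opposite order, at 0.25 on day 4 and -0.38 on day 7. Hey1 stood at -0.31 on day 4 and 0.033 on day 7, with 1 array of each pair detecting it. With 1 array per group each sign rests on a single pair of arrays, and the difference between the days was not tested. Among the 11450 probes detected on all 4 arrays, 27.2% were lower with DAPT on day 4 and higher on day 7, and 38.3% the other way round.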

How the results depend on the processing

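The count of member probes at least 2-fold, 0 in each comparison of array pairs, was 1 with median scaling for DAPT on day 4 and 1 for day 7 against day 4 without DAPT, both Hes1. The other alternatives left those counts at 0, and so did each of 8 alternatives for members passing the additive limma test. The median over member probes for day 7 against day 4 with DAPT was -0.04 and became -0.33 both with detection p under 0.05 and with detection on every array compared, because a probe then entered or left. Of 170 values recomputed for the 4 genes, 167 moved by less than the probe SD or, in the additive test, stayed on their side of the threshold. Of the 170, 6 changed sign, none of Hes1 or Nrarp. Many of the 170 could not move. Another detection filter leaves a gene's own difference unchanged, and so does leaving a term out of the additive model. The count is therefore no measure of robustness. The DAPT estimate of Nrarp ranged from -0.61 to -0.53 and that of Hes1 from -0.36 to -0.29. The additive model compares DAPT with no DAPT within each day; leaving out the day kept the count of members passing at 0, with Nrarp at -0.60. Signals near background, such as Hey1's, have differences that the offset shrinks.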
